A study of Homo sapiens with 24 samples.

Results

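The annexin genes described here are ANXA1, ANXA2, ANXA3, ANXA4, ANXA5, ANXA6, ANXA7, ANXA9, ANXA10 and ANXA11, 10 of the 65180 gene IDs in the deposited count table. They were taken from the table by Ensembl ID and symbol. They were selected on their CPM (counts per 1e6 counts of a library) in the 6 treatment groups, with ANXA10 and ANXA3 singled out. Their levels and differences are therefore given as a description, with no test, and a statement that the all-gene fit called a member adds no support. Tests are given for genes outside this list. Those genes were also listed with earlier results of these data known, and their p-values carry that limit.

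RNA was measured by poly(A) RNA-seq in HK-2, an immortalised human proximal tubular epithelial cell line, in 24 libraries. All cells were deprived of serum overnight and then incubated for 24 h. Normoxic cells received solvent (5 libraries), BAY 60-2770 (3), TGF-β1 at 2 ng/mL (5), or TGF-β1 with BAY 60-2770 (5). Hypoxic cells, at 0.3% oxygen, received solvent (3) or BAY 60-2770 (3). BAY 60-2770, called BAY here, activates soluble guanylate cyclase, which synthesises cyclic GMP. The labels give its concentration as 1 mM, a dose whose unit is doubtful, and every difference with BAY belongs to that uncertain dose. TGF-β1 is a cytokine that drives fibrotic and mesenchymal programmes in tubular cells. All groups come from 1 cell line, and the labels call the replicates biological without saying what separated them, so errors measure the spread between these cultures.

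Annexins are cytosolic proteins that bind acidic phospholipids, mostly in a calcium-dependent way, through a conserved core of repeated domains. Their N-terminal tails differ and bind partners, among them the S100 proteins. In epithelia they take part in membrane traffic, in the repair of the plasma membrane, in cell surface plasminogen activation and, after release from the cell, in signalling through formyl peptide receptors. Annexins A9 and A10 carry altered calcium-binding sites.

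Promoters were read for all 10 members as windows of the 250 bases before each RefSeq start, on GRCh38.p14. ANXA4, ANXA6 and ANXA11 have several such starts. Some starts, among them that of ANXA2, lie inside the gene as GENCODE 29 places it. The 2 printed here are those of ANXA10, the member detected almost solely with BAY, and ANXA2, the most abundant member in the solvent controls by CPM, which was higher with TGF-β1 and lower with BAY. Bases that GENCODE 29 places in an exon of the gene were left out. The window of ANXA3 lay wholly within an annotated exon and is not printed. Capitals mark a TATA motif in ANXA10 and an AP-1 motif in ANXA2.
ANXA10, chr4:168092287-168092514, plus strand: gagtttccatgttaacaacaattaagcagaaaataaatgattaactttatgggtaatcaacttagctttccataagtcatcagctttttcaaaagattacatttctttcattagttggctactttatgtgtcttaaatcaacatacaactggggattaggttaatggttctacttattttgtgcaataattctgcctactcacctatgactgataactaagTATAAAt
ANXA2, chr15:60398044-60398236, minus strand: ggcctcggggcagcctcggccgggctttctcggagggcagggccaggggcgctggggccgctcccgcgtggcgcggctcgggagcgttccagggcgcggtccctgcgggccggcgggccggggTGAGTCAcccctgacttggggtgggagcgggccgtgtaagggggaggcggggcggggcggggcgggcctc
On either strand of the bases before the start, TATAAA was found in ANXA10 at 29 bases before the RefSeq start, in ANXA1 and ANXA2 at 31 and in ANXA11 at 61. Of all 35116 promoters, 10.7% held it. TGANTCA, the AP-1 motif, was found in ANXA2 at 127 bases before the start and is held by 6.57% of promoters. ACGTG, the core of the hypoxia response element, was found in ANXA4, ANXA6 and ANXA9 and is held by 18.5%. In ANXA4 and ANXA6 its matches on the 2 strands overlap. CAGAC, the SMAD box, was found in ANXA4, ANXA6, ANXA9 and ANXA11 and is held by 38% of promoters. Where a member has several windows, a motif counts as found if any of them holds it, while the shares are of single windows. In ANXA4, ACGTG and CAGAC lay in the same window, inside the gene, and the other window held none of the motifs searched. In ANXA6 they lay in different windows. In ANXA11, TATAAA and TGACG shared a window and CAGAC lay in another. TGACGTCA, the cyclic AMP response element, was in no window of any member (1.65% of promoters). Its core TGACG, which that element contains, was in a window of ANXA11 (21.2%). GGAATG, the TEAD motif, was in no window of any member (11.9%). The window of ANXA3 held none of these letters. A match is a description of letters, and its absence says nothing of a factor.

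Library totals ran from 78862528 to 105571250 counts. The libraries held the renal epithelial transcripts PAX8 (mean 313 CPM) and KRT8 (631 CPM) and the proximal tubule transcripts GGT1 (166 CPM) and CDH6 (973 CPM), while LRP2 (0.15 CPM), ANPEP (0.265 CPM) and AQP1 (0.575 CPM) were near 0. In all, 5 of 9 proximal tubule markers had a mean of at least 1 CPM. Of the markers of other cell types, PECAM1, VWF, CDH5, PTPRC, COL3A1 and NPHS1 averaged at most 0.0325 CPM, and CD3E, UMOD and AQP2 had no count. Other genes of the same lists were well detected, among them SYNPO (261 CPM), CD74 (159 CPM), CD68 (132 CPM), COL1A1 (112 CPM), LUM (90.4 CPM), EGFL7 (36.4 CPM) and SCNN1A (19.1 CPM). At least 1 CPM on average was reached by 4 of 5 fibroblast, 2 of 5 immune, 2 of 5 podocyte, 2 of 6 endothelial and 2 of 6 distal nephron markers. Some of these summed levels moved with the treatments. The fibroblast sum ran from 107 to 132 CPM in controls, 161 to 168 CPM with BAY in normoxia, 124 to 130 CPM in hypoxia, 224 to 242 CPM with BAY in hypoxia, 292 to 304 CPM with TGF-β1 and 261 to 287 CPM with both agents. The podocyte sum, mostly SYNPO, ran from 67.9 to 89 CPM in controls, 101 to 106 CPM with BAY in normoxia, 449 to 482 CPM in hypoxia and 1223 to 1350 CPM with BAY in hypoxia. The immune sum ran from 362 to 388 CPM in controls, 245 to 256 CPM with BAY in normoxia and 223 to 255 CPM with TGF-β1. The distal nephron sum ran from 36.1 to 38.5 CPM in controls and 8.05 to 10.4 CPM with TGF-β1. The part of these genes in the results was not tested. Libraries of the solvent control and both TGF-β1 groups fell apart within their groups along the first principal component of the deviations from group means, which held 13.4% of that variance. The first side, called library set 1, holds solvent replicates 1, 2 and 5 and replicates 1 and 2 of each TGF-β1 group. The other, library set 2, holds solvent replicates 3 and 4 and replicates 3, 4 and 5 of each TGF-β1 group. These sets were seen in the data and are not groups of the study. The other 9 libraries were not assigned to a set. Deviations were taken from group means, so a group lying wholly on 1 side would not show it. In each of the 3 groups with sets, ANXA1, ANXA2, ANXA4, ANXA5, ANXA6 and ANXA7 were higher in each library of set 1 than in each of set 2. Values within the sets, or against the controls of 1 set, are therefore given beside several results below. What separates the sets was not tested.

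Summed over the 10 members, the level was 1389 ± 116 CPM in the solvent controls (SD, n = 5) and highest with TGF-β1, at 1843 ± 146 CPM (n = 5). It was lowest with BAY in normoxia, at 1149 ± 29 CPM (n = 3). ANXA2 took 30.2% ± 0.35 of the sum in the controls and 52.8% ± 0.657 with TGF-β1. ANXA4 took 11.4% ± 0.452 in the controls, 30.7% ± 2.5 with BAY in hypoxia and 3.55% ± 0.157 with TGF-β1. Per kilobase of the median coding transcript in GENCODE 29, the control level was 291 CPM for ANXA2, 221 for ANXA5, 75.5 for ANXA4, 53.6 for ANXA6, 46.7 for ANXA7, 45.2 for ANXA3, 33.1 for ANXA11, 28.8 for ANXA1, 3.17 for ANXA9 and 0.00291 for ANXA10. This order depends on the length used: per kilobase of all exons joined, ANXA5 (99.1 CPM) lay above ANXA2 (47.6 CPM).

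**Figure D1:**
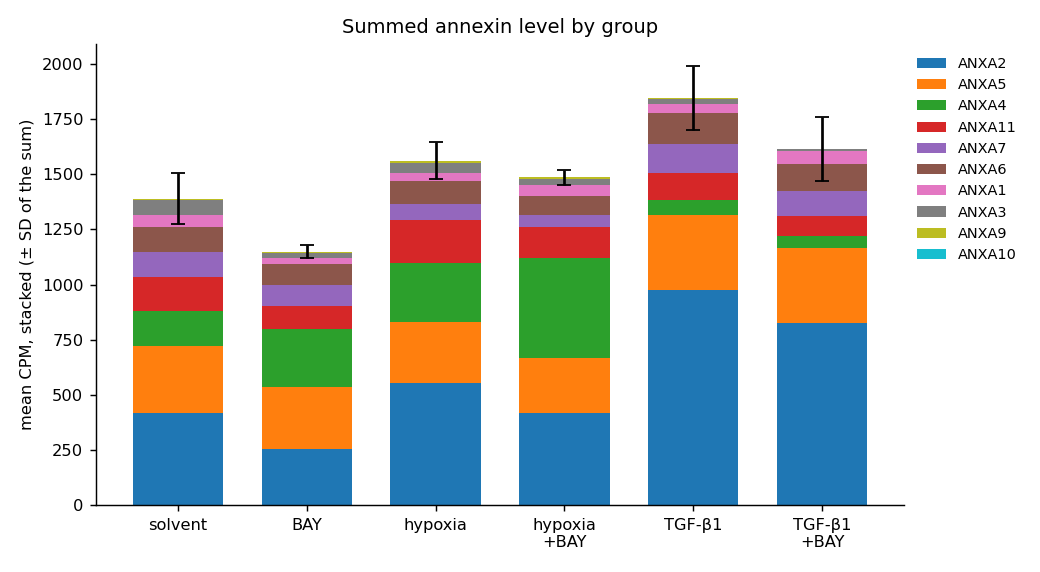
Stacked bars give the mean CPM of the 10 annexin genes in each of the 6 groups, and error bars the SD of the sum over libraries (n = 5 for solvent, TGF-β1 and TGF-β1 with BAY, n = 3 otherwise). The ANXA2 segment takes 30.2% of the sum in the controls and 52.8% with TGF-β1, and the ANXA4 segment is widest with BAY in hypoxia.

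ANXA10 (chromosome 4, 168092515 to 168187690, plus strand, GRCh38) was close to undetected without BAY and present in every library with it. Annexin A10 is known as a gastric and urothelial family member. In the 5 solvent controls its estimated counts were at most 1 and summed to 2, with 3 libraries at 0. In the 3 hypoxic solvent libraries no count was found, and in the 5 TGF-β1 libraries the counts summed to 4, with 2 libraries at 0. With BAY, counts were 22 to 30 per library in normoxia, 6 to 11 in hypoxia and 19 to 49 on TGF-β1. No library with BAY overlapped any library without it. In bulk RNA, more cells with a transcript and more transcript per cell cannot be told apart.

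In CPM, the 3 normoxic BAY libraries read 0.287, 0.221 and 0.215 for ANXA10. The 3 hypoxic BAY libraries read 0.0763, 0.144 and 0.0744, all below those of normoxic BAY. The 5 libraries of TGF-β1 with BAY read 0.259, 0.199, 0.546, 0.296 and 0.329 and overlapped normoxic BAY. The order of the groups by mean was TGF-β1 with BAY (0.326 ± 0.132), BAY in normoxia (0.241 ± 0.0396), BAY in hypoxia (0.0983 ± 0.0399), then TGF-β1 alone (0.00884 ± 0.00909) and solvent (0.00413 ± 0.00565), which overlapped, and hypoxia at 0.

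From the summed counts, scaled by library size, ANXA10 was 59.3-fold higher with BAY than with solvent in normoxia (95% exact counting interval 15.9 to 498) and 36.3-fold higher on TGF-β1 (13.9 to 135). In hypoxia, where the group without BAY had no count, the lower limit of the same interval was 6.75-fold. Set against a floor of 3 counts over that group of 3 libraries, the 24 counts with BAY were 8.97-fold higher. These intervals cover counting error only, and the fold against the floor leaves out the counting error of the 24 counts. The wide intervals come from the 0 to 4 counts in the groups without BAY. ANXA10 entered the fits only through its BAY groups. Its level stayed below 1 CPM everywhere, so it added almost nothing to the annexin sum. The nearest annotated protein-coding genes did not share this pattern. DDX60, 28603 bases beyond its end, read 32.9 ± 3.22 CPM in controls and 35.1 ± 1.36 CPM with BAY, and SPOCK3, 857719 bases before its start, read 0.557 ± 0.0846 and 0.59 ± 0.039 CPM.

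**Figure D2:**
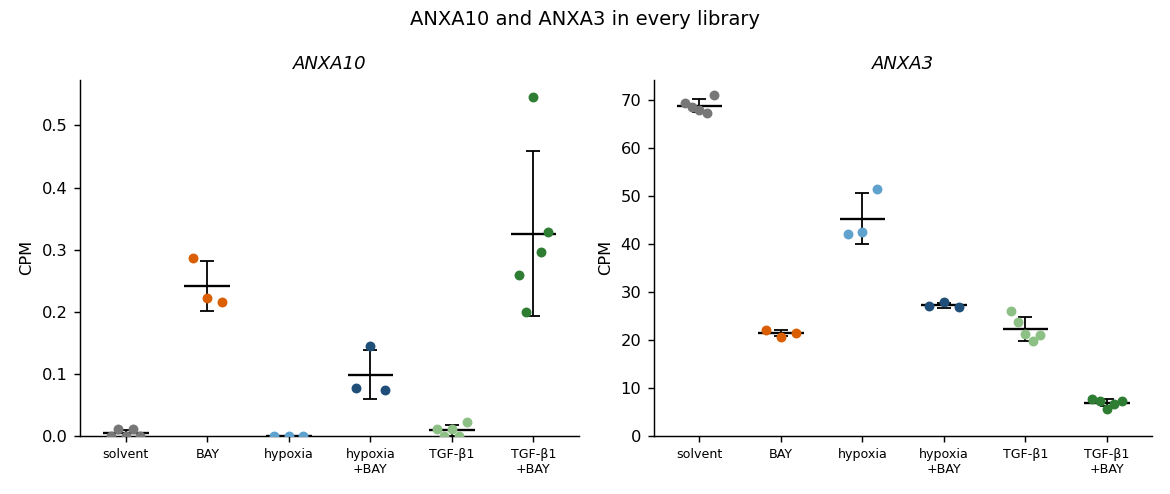
Points give CPM of ANXA10 and ANXA3 in each of the 24 libraries by group, horizontal bars the group mean and error bars the SD. ANXA10 lies at or near 0 in the 13 libraries without BAY, and ANXA3 goes from about 69 CPM in controls to 6.9 CPM with TGF-β1 and BAY together.

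ANXA3 (chromosome 4, 78551519 to 78610451, plus strand), an annexin abundant in neutrophils, was lower in every treated group than in the controls. The 5 controls read 69.5, 68.7, 68.1, 67.4 and 71.1 CPM. Hypoxic solvent libraries read 42.1, 42.4 and 51.5 CPM, and hypoxic BAY libraries 27, 27.9 and 26.9 CPM. Normoxic BAY libraries read 22.1, 20.7 and 21.5 CPM. TGF-β1 libraries read 26, 23.7, 21.3, 19.7 and 21 CPM and overlapped normoxic BAY. With TGF-β1 and BAY together the 5 libraries read 7.69, 7.23, 5.68, 6.63 and 7.25 CPM, the lowest of the 6 groups. All other neighbours in this order were apart without overlap.

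On the log2 scale ANXA3 differed by -1.68 ± 0.06 (SE) with BAY in normoxia, by -1.68 ± 0.07 with TGF-β1 and by -1.68 ± 0.07 with BAY added to TGF-β1. The difference with BAY was thus of like size with and without TGF-β1, the interaction being 0.02 ± 0.10. The mean with both agents was 10-fold below the control mean. In hypoxia the difference with BAY was smaller, -0.74 ± 0.06, with an interaction of 0.93 ± 0.08, and hypoxia itself gave -0.62 ± 0.06. Within library set 1 and set 2 alone, TGF-β1 gave -1.52 and -1.75, and BAY on TGF-β1 gave -1.72 and -1.65.

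Genes were ranked by how closely their log2 CPM followed each of ANXA10 and ANXA3 over all 24 libraries, among genes with a mean of at least 1 CPM. The nearest to ANXA10 were BRD8 (Pearson r = 0.945), CREM (0.937), KSR1 (0.93), GPAT3 (0.925) and VAMP4 (0.919). CREM, a cyclic AMP responsive transcription factor, read 10.4 ± 0.793 CPM in controls and 31.3 ± 0.837 CPM with BAY, and KSR1 read 31.2 ± 3.75 and 111 ± 5.39 CPM. The nearest to ANXA3 were IFIT3 (0.974), IFIT2 (0.974), CGN (0.967), BCL2L1 (0.966) and TAPBP (0.965). IFIT2, an interferon-induced gene, read 68.2 ± 1.26 CPM in controls and 10.1 ± 0.911 CPM with TGF-β1 and BAY. CGN, which encodes the tight junction protein cingulin, read 67.3 ± 4.95 and 9.58 ± 0.339 CPM in these groups. These likenesses rest on 6 groups and libraries that share their treatments, and are a description.

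ANXA1 (chromosome 9, 73151757 to 73170393, plus strand) encodes a glucocorticoid-regulated protein that, once released, is a ligand of formyl peptide receptors. It was lower with BAY in normoxia and higher with BAY in the other 2 backgrounds. Controls read 60.9, 57.1, 47.2, 44.3 and 58 CPM and normoxic BAY libraries 31.9, 29.7 and 29.8 CPM, with no overlap, a log2 difference of -0.80 ± 0.09. Against the controls of set 1 alone that difference was -0.95, and against those of set 2 alone -0.59. Hypoxic solvent libraries read 39.2, 39.8 and 39.8 CPM and hypoxic BAY libraries 53, 50.1 and 43.8 CPM, a difference of 0.30 ± 0.10. TGF-β1 libraries read 51.3, 52.4, 35.6, 35.9 and 37.5 CPM and those with BAY added 77.2, 74.5, 52.3, 50.1 and 52.1 CPM, a difference of 0.54 ± 0.14. The last 2 groups overlap when pooled and do not overlap within either library set, where the differences were 0.56 and 0.52. The interaction was 1.10 ± 0.13 with oxygen and 1.36 ± 0.22 with TGF-β1. With TGF-β1 alone ANXA1 differed by -0.38 ± 0.14 pooled, by -0.21 within set 1 and by -0.37 within set 2, and the call was lost without any of solvent replicates 1, 2 and 5 or TGF-β1 replicates 3, 4 and 5. The call with BAY in hypoxia was lost without BAY replicate 1 or 2 or any of the 3 hypoxic solvent libraries.

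FPR1, a formyl peptide receptor, rose with BAY in all 3 backgrounds. It read 1.73 ± 0.202 CPM in controls (n = 5) and 7.29 ± 0.528 CPM with BAY (n = 3), a log2 change of 2.09 ± 0.11 (edgeR adjusted p = 9.14e-10). It rose by 1.52 ± 0.14 with BAY in hypoxia (edgeR adjusted p = 4e-07) and by 1.84 ± 0.09 with BAY on TGF-β1 (edgeR adjusted p = 3.37e-11). FPR1 fell by 1.07 on the log2 scale in hypoxia (edgeR adjusted p = 1.77e-06) and rose by 1.38 ± 0.09 with TGF-β1 (edgeR adjusted p = 1.98e-10). With TGF-β1 and BAY together it reached 16.4 ± 1.67 CPM, above every other group without overlap. So the receptor was higher with BAY in each background, while ANXA1 was lower with BAY in normoxia alone. FPR2 read 0.0467 ± 0.0173 CPM in controls and 0.229 ± 0.113 CPM with TGF-β1. It passed the filter on low counts in the TGF-β1 experiment only, so no test is given. FPR3 had no count. Of the eicosanoid and glucocorticoid-linked genes listed beside these receptors, PTGS1, a cyclooxygenase, rose by 3.68 ± 0.09 in hypoxia (edgeR adjusted p = 1.37e-12). It fell by 0.49 with BAY in normoxia (edgeR adjusted p = 0.00134) and by 0.67 with TGF-β1 (edgeR adjusted p = 0.000907). With BAY on TGF-β1 it rose by 0.48 ± 0.15 (edgeR adjusted p = 0.0249). Of 6 genes of the whole list tested, FPR1 among them, 2 rose and 1 fell with BAY in normoxia (20.6% and 23.3% of all genes). In hypoxia 2 rose and 1 fell with BAY (16.5% and 21.4%). DUSP1, a phosphatase of MAP kinases, rose with BAY by 1.06 ± 0.23 in normoxia, 1.76 ± 0.27 in hypoxia and 1.94 ± 0.20 on TGF-β1 (edgeR adjusted p = 0.00376, 0.000409 and 1.45e-06). Its controls spread widely, from 30.1 to 65.9 CPM with a median of 59.8, so the size of the change in normoxia, where BAY libraries ran from 101 to 104 CPM, depends on which controls are used.

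ANXA2 (chromosome 15, 60347134 to 60402883, minus strand) forms a complex with S100A10 that binds plasminogen and tissue plasminogen activator at the cell surface. It was the most abundant member in CPM in all groups except BAY in normoxia and BAY in hypoxia. Controls read 447, 424, 392, 377 and 459 CPM and TGF-β1 libraries 1052, 1036, 908, 929 and 940 CPM, a log2 difference of 1.16 ± 0.06 with no overlap. Hypoxic solvent libraries read 518, 528 and 616 CPM, a difference of 0.39 ± 0.06. With BAY it was lower in each background, by -0.71 ± 0.07 in normoxia (261, 250 and 255 CPM), -0.42 ± 0.07 in hypoxia (406, 404 and 444 CPM) and -0.22 ± 0.06 on TGF-β1 (889, 917, 757, 762 and 805 CPM). The difference with BAY was smaller on TGF-β1 than without it, with an interaction of 0.50 ± 0.09.

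S100A10 rose with TGF-β1 by 1.39 ± 0.11 on the log2 scale (edgeR adjusted p = 3.38e-09), from 169 ± 26.4 to 461 ± 57.2 CPM (n = 5 each). With BAY it fell in normoxia by 0.81 (edgeR adjusted p = 9.92e-06). In hypoxia without BAY S100A10 rose by 0.41 ± 0.09 (edgeR adjusted p = 0.00124). With BAY in hypoxia it changed by -0.22 ± 0.10 (edgeR adjusted p = 0.114), not past the threshold. The oxygen by BAY interaction of S100A10 was 0.59 ± 0.14 (edgeR adjusted p = 0.00928). On TGF-β1 it rose with BAY by 0.39 ± 0.10 (edgeR adjusted p = 0.00851), to 598 ± 78.2 CPM, and the interaction was 1.22 ± 0.16 (edgeR adjusted p = 3.46e-05). In that background ANXA2 differed in the other direction. The libraries of TGF-β1 with BAY lay above those of TGF-β1 alone in set 1 (679 and 687 against 524 and 523 CPM) and in set 2 (526 to 550 against 416 to 421 CPM). S100A11, a partner of annexin A1, rose with TGF-β1 by 0.95 ± 0.06 (edgeR adjusted p = 5.34e-11). It fell by 0.46 with BAY in normoxia (edgeR adjusted p = 8.79e-07), by 0.37 with BAY in hypoxia (edgeR adjusted p = 3.04e-05) and by 0.55 in hypoxia (edgeR adjusted p = 3.76e-08). Of the 5 S100 genes tested, 5 rose with TGF-β1, where 29.5% of all genes rose, and 4 fell with BAY in normoxia, where 23.3% of all genes fell. Their median log2 fold changes were 0.82 and -0.69, where the medians over all genes tested were -0.04 and 0.00408.

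**Figure D3:**
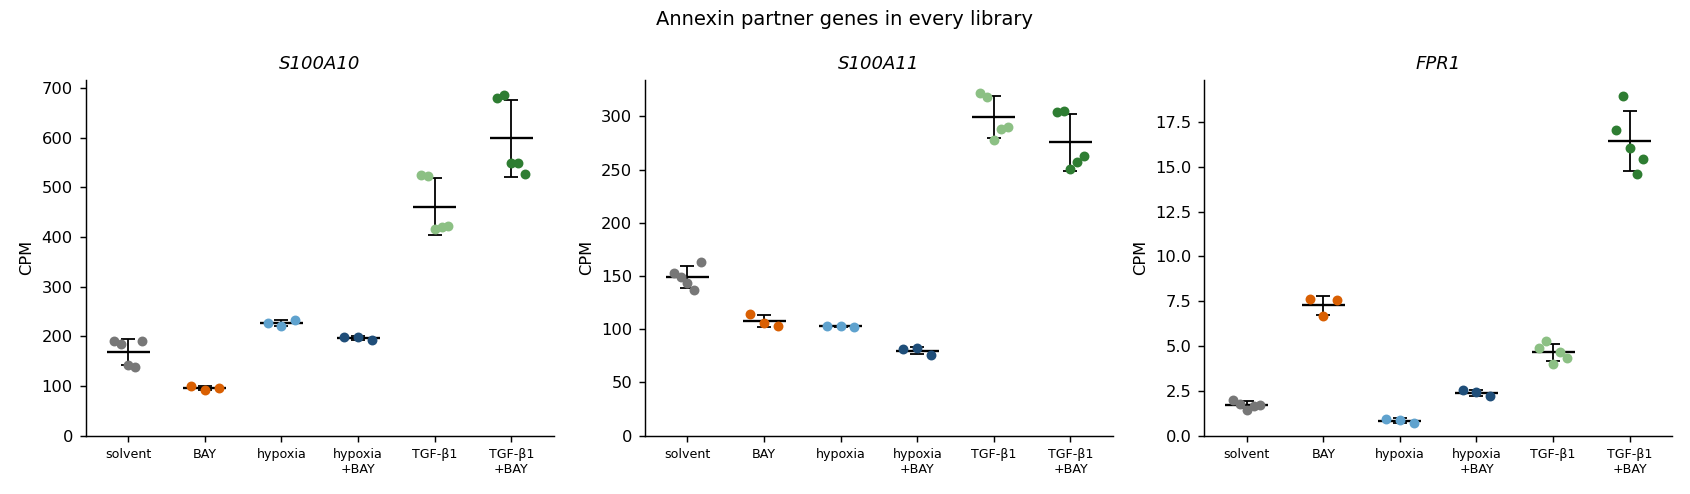
Points give CPM of S100A10, S100A11 and FPR1 in each library by group, with the group mean and SD. S100A10 is highest with TGF-β1 and BAY together, at 526 to 687 CPM, and FPR1 is higher with BAY than without it in all 3 backgrounds.

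Of the 6 cell surface plasminogen genes tested, 3 rose and 3 fell with TGF-β1, where 62.0% of all genes were called. With BAY in normoxia 5 fell and none rose, where 23.3% of all genes fell and 20.6% rose. PLAU, the urokinase activator, fell by 1.96 with TGF-β1 (edgeR adjusted p = 7.68e-07), by 1.55 with BAY in normoxia (edgeR adjusted p = 9.47e-13) and by 0.96 with BAY on TGF-β1 (edgeR adjusted p = 0.0027). PLAUR, its receptor, rose with TGF-β1 by 1.40 ± 0.13 (edgeR adjusted p = 6.84e-08). The transcript of the urokinase receptor thus rose with TGF-β1 while that of urokinase fell. PLAT, the tissue plasminogen activator, rose with TGF-β1 by 0.93 ± 0.21 (edgeR adjusted p = 0.00075).

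ANXA4 (chromosome 2, 69644425 to 69827100, plus strand), an annexin of epithelial cells that self-associates on membranes, showed the widest spread of group means after ANXA10 and ANXA3. Controls read 172, 170, 140, 137 and 176 CPM. Normoxic BAY libraries read 272, 255 and 259 CPM, a log2 difference of 0.73 ± 0.08. Hypoxic solvent libraries read 267, 266 and 268 CPM, 0.73 ± 0.08 above the controls, and hypoxic BAY libraries 490, 475 and 403 CPM, a further 0.76 ± 0.09. The differences with BAY in normoxia and hypoxia were of like size, with an interaction of 0.03 ± 0.12, which became 0.18 against the controls of library set 1 alone and -0.14 against those of set 2, neither called. TGF-β1 libraries read 72.6, 74.7, 61.7, 59.1 and 59.6 CPM, all below the controls, a difference of -1.33 ± 0.09. On TGF-β1 the difference with BAY had the other sign, -0.25 ± 0.09, with libraries at 61.9, 62.6, 47.3, 49.9 and 51.5 CPM. Those 2 groups overlap when pooled and not within the library sets, where the differences were -0.23 and -0.26. The interaction of TGF-β1 with BAY was -0.96 ± 0.14.

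**Figure D4:**
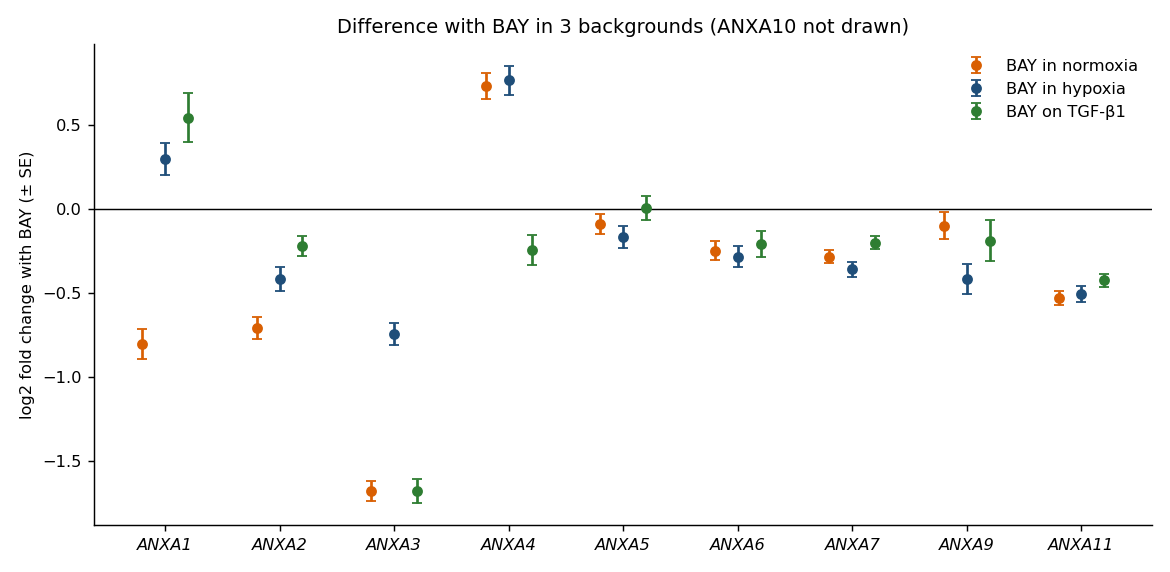
Points give the log2 fold change with BAY against the matching group without it, in normoxia, hypoxia and on TGF-β1, with bars of 1 SE from the edgeR fit. ANXA10 is not drawn, since its groups without BAY are at or near 0. ANXA1 and ANXA4 change sign between backgrounds, and ANXA5 does so only by lying at 0.004 on TGF-β1. ANXA2, ANXA3, ANXA6, ANXA7, ANXA9 and ANXA11 lie below 0 in all 3.

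The highest group mean was 1.38 times the lowest for ANXA5, 1.66 times for ANXA6, 2.1 times for ANXA11 and 2.29 times for ANXA7. ANXA5 (chromosome 4, 121667955 to 121697113, minus strand), which binds exposed phosphatidylserine and is used as a probe of dying cells, was called in none of the 7 comparisons. Controls ran from 270 to 331 CPM with a median of 308, hypoxic BAY libraries, the lowest group, read 249, 253 and 242 CPM, and TGF-β1 libraries ran from 310 to 380 CPM. Its log2 difference with TGF-β1 was 0.13 ± 0.07 pooled, and 0.20 and 0.19 within library sets 1 and 2, where the fit called it. With BAY in hypoxia it was -0.17 ± 0.07 and was called without hypoxic solvent replicate 1. In hypoxia it was -0.13 ± 0.06 and was called without solvent replicate 3 or 4 or hypoxic solvent replicate 3.

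ANXA6 (chromosome 5, 151100712 to 151157882, minus strand), whose protein takes part in cholesterol traffic and membrane repair, was lower with BAY by -0.25 ± 0.06 in normoxia, -0.28 ± 0.06 in hypoxia and -0.21 ± 0.08 on TGF-β1, and higher with TGF-β1 by 0.26 ± 0.08. Within library sets 1 and 2 the difference with TGF-β1 was 0.35 and 0.32, and against the controls of set 1 alone it was 0.16 and not called. Controls read 123, 121, 101, 101 and 122 CPM and normoxic BAY libraries 95.4, 95.1 and 94.5 CPM. The controls of library set 2, at 101 CPM, left a difference with BAY of -0.09 that was not called. Its calls in hypoxia (-0.15 ± 0.06) and with BAY on TGF-β1 lay close to the threshold. The first was lost without any of solvent replicates 1, 2 and 5 or any hypoxic solvent library, and the second without any of TGF-β1 replicates 1, 2, 4 and 5 or replicates 3, 4 and 5 with BAY added.

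ANXA7 (chromosome 10, 73375101 to 73414076, minus strand), first known for aggregating chromaffin granules, read 120, 117, 108, 107 and 121 CPM in controls and 71.7, 74.1 and 70.6 CPM in hypoxia. That is a log2 difference of -0.68 ± 0.04 with no overlap. It was lower still with BAY in hypoxia, at 56.6, 57.5 and 55.7 CPM. Its differences with BAY were -0.29 ± 0.04, -0.36 ± 0.04 and -0.20 ± 0.04 in normoxia, hypoxia and on TGF-β1. ANXA11 (chromosome 10, 80150889 to 80205572, minus strand), which links RNA granules to lysosomes, was lower with BAY by a like amount in each background, -0.53 ± 0.04, -0.50 ± 0.05 and -0.43 ± 0.04. Its controls read 160, 156, 148, 143 and 159 CPM and normoxic BAY libraries 108, 106 and 103 CPM. It was higher in hypoxia, at 188, 188 and 204 CPM, and lower with TGF-β1, at 118 to 132 CPM.

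ANXA9 (chromosome 1, 150982017 to 150995634, plus strand) differed with TGF-β1 by an amount close to that of ANXA3, at a low level. Its protein is among those with altered calcium-binding sites. Controls read 5.6, 5.47, 5.39, 5.56 and 6.89 CPM and TGF-β1 libraries 1.95, 2.33, 1.6, 1.37 and 1.37 CPM, a log2 difference of -1.80 ± 0.12 with no overlap, and of -1.52 and -1.96 within library sets 1 and 2. Hypoxic solvent libraries read 10.1, 9.59 and 10.2 CPM, 0.77 ± 0.08 above the controls. BAY in hypoxia gave 7.18, 7.82 and 7.57 CPM, a difference of -0.42 ± 0.09. In normoxia BAY gave 5.77, 5.23 and 5.09 CPM, which overlapped the controls. On TGF-β1 the difference with BAY was -0.19 ± 0.12 pooled, -0.45 within library set 1 and 0.03 within set 2.

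**Figure D5:**
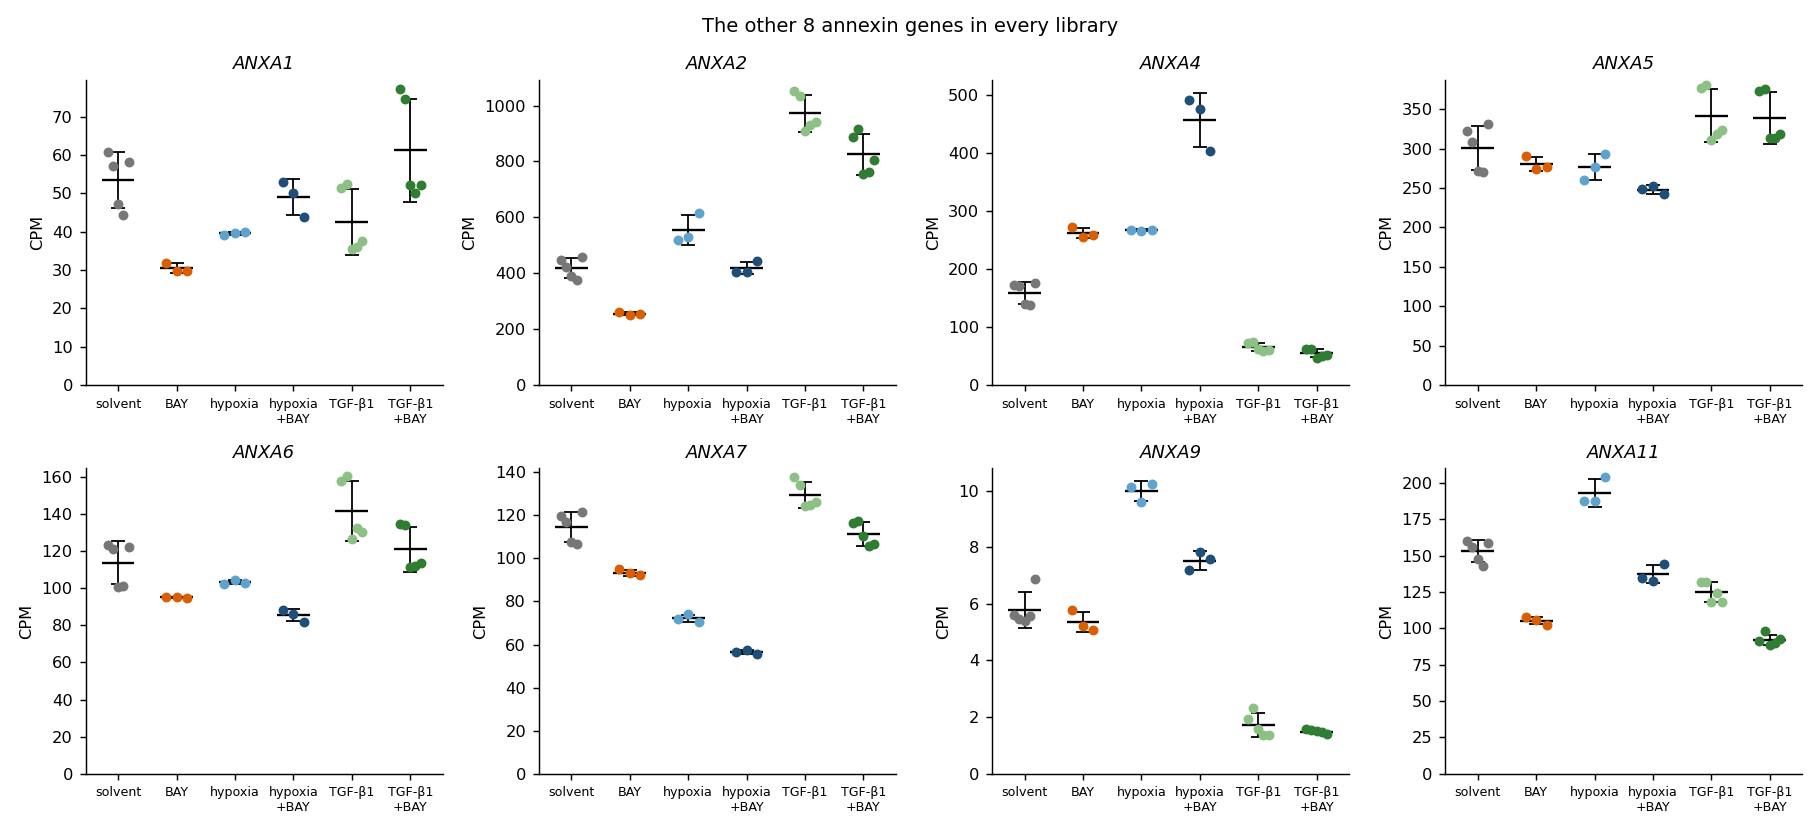
Points give CPM of the other 8 annexin genes in each of the 24 libraries by group, with the group mean and SD. Within the solvent and TGF-β1 groups the points of several genes, such as ANXA1 and ANXA5, fall into 2 clusters, which are the library sets.

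Counts of members past the threshold stand beside those of all genes and are read no further, since the members were selected on these levels. All 10 members passed the filter on low counts. The fit called 8 members in hypoxia, 4 higher and 4 lower, where 60.8% of 21316 genes were called, 29.2% higher and 31.6% lower. With BAY in normoxia it called 8, 2 higher and 6 lower (43.9% of genes, 20.6% higher and 23.3% lower). With BAY in hypoxia it called 9, 3 higher and 6 lower (37.9%, 16.5% and 21.4%). The oxygen by BAY interaction was called in 2, ANXA1 and ANXA3, both positive (16.8%, 8.83% and 7.92%). With TGF-β1 it called 8, 3 higher and 5 lower, where 62.0% of 21639 genes were called, 29.5% higher and 32.5% lower. With BAY added to TGF-β1 it called 7, 2 higher and 5 lower (29.5%, 13.9% and 15.6%). The TGF-β1 by BAY interaction was called in 3, ANXA1 and ANXA2 positive and ANXA4 negative (20.7%, 13.7% and 7.08%). The median member log2 difference was -0.27 with BAY in normoxia, -0.32 with BAY in hypoxia and -0.20 with BAY on TGF-β1, beside medians over all genes of 0.00408, -0.02 and 0.00597. All comparisons with normoxia share its solvent controls, and each interaction shares libraries with the comparisons it is built from. The 2 interactions share the difference with BAY in normoxia.

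Genes of membrane repair, a process in which annexins A1, A2, A4, A5 and A6 take part, were counted next. With BAY in normoxia, 12 of 15 tested fell, none rose and 3 were not called, where 23.3% of all genes fell and 20.6% rose. Their median log2 fold change was -0.36. DYSF, which encodes dysferlin, fell by 1.14 (edgeR adjusted p = 5.88e-10), CAVIN1, a coat protein of caveolae, by 1.07 (edgeR adjusted p = 1.72e-06) and MYOF, myoferlin, by 0.79 (edgeR adjusted p = 3.39e-08). With BAY in hypoxia, 2 rose and 6 fell (16.5% and 21.4% of all genes), and with BAY on TGF-β1, 1 rose and 4 fell (13.9% and 15.6%). DYSF fell with BAY in these backgrounds too, by 1.04 (edgeR adjusted p = 5.95e-09) and 0.77 (edgeR adjusted p = 8.4e-10). With TGF-β1, 9 rose and 3 fell (29.5% and 32.5% of all genes), CAVIN1 rising by 1.96 ± 0.08 (edgeR adjusted p = 4.66e-13) and MYOF falling by 1.61 (edgeR adjusted p = 3.6e-11). The interaction was positive and called in 9 of 15 genes in each experiment (8.83% of all genes with oxygen and 13.7% with TGF-β1). Both interactions are taken against the same difference with BAY in normoxia, where 12 of these genes fell. The 2 counts are therefore not independent. They also rest on the solvent controls. Over all partner lists, fewer genes were called in the TGF-β1 by BAY interaction against the controls of library set 2 alone, as given in the last section. For CAVIN1 the interaction was 0.91 ± 0.15 with oxygen (edgeR adjusted p = 0.000945) and 1.51 ± 0.12 with TGF-β1 (edgeR adjusted p = 1.03e-07). Its controls ran from 142 to 148 CPM in library set 1 and from 105 to 111 CPM in set 2. In hypoxia alone 8 rose and 4 fell (29.2% and 31.6% of all genes), EHD2 rising by 0.91 ± 0.08 (edgeR adjusted p = 7.55e-08).

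Scramblases and flippases, which set how much phosphatidylserine the outer leaflet exposes to annexins, changed in mixed directions. Of 8 tested, 4 rose and 3 fell in hypoxia, 2 rose and 3 fell with BAY in normoxia, and 3 rose and 4 fell with TGF-β1, where 60.8%, 43.9% and 62.0% of all genes were called. The scramblase ANO6 rose by 0.90 ± 0.05 in hypoxia (edgeR adjusted p = 2.52e-10) and by 1.21 ± 0.07 with TGF-β1 (edgeR adjusted p = 3.85e-11). The flippase ATP11A rose with BAY by 1.01 ± 0.06 in normoxia and 0.85 ± 0.07 in hypoxia (edgeR adjusted p = 3e-09 and 1.37e-07) and fell by 0.71 with TGF-β1 (edgeR adjusted p = 2.03e-09). Of the 7 copines, another family of calcium-dependent phospholipid-binding proteins, 1 rose and 1 fell with BAY in normoxia, and 3 rose and 3 fell with TGF-β1 (43.9% and 62.0% of all genes called). Over all 54 partner genes listed, 5 rose and 26 fell with BAY in normoxia among 47 tested, where 20.6% and 23.3% of all genes did. With TGF-β1, 26 rose and 15 fell among 49 tested, where 29.5% and 32.5% of all genes did. FPR2 and PTGS2, both among the 26, passed the filter on low counts in the TGF-β1 experiment only.

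Other annexin rows of the table were not among the selected genes. ANXA13, an annexin of intestinal and renal epithelium, read 6.45 ± 1.57 CPM in controls and fell by 3.19 on the log2 scale with TGF-β1 (edgeR adjusted p = 5.22e-10), to 0.731 ± 0.295 CPM. It rose with BAY in normoxia by 0.95 ± 0.17 (edgeR adjusted p = 0.00037), to 12.3 ± 0.412 CPM, above controls that spread from 4.34 to 7.93 CPM. Its change with BAY was 0.13 ± 0.19 in hypoxia (edgeR adjusted p = 0.65) and 0.05 ± 0.22 on TGF-β1 (edgeR adjusted p = 0.902), neither past the threshold, and the oxygen by BAY interaction was -0.82 ± 0.26 (edgeR adjusted p = 0.044). ANXA8 and ANXA8L1, near-identical copies between which reads may be misassigned, read 0.0617 ± 0.027 and 0.0083 ± 0.0186 CPM in controls and 0.477 ± 0.157 and 0.34 ± 0.128 CPM with TGF-β1. They passed the filter on low counts in the TGF-β1 experiment only, so no test is given. ANXA2P2, a processed copy of ANXA2, rose with TGF-β1 by 0.97 ± 0.25 (edgeR adjusted p = 0.00213) at 0.34 ± 0.0739 CPM, and its reads cannot be told apart with certainty from those of ANXA2. ANXA2P1 and ANXA2P3 did not pass the filter on low counts.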

How the data were processed

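The values are estimated counts per gene and library, in 1 table as deposited by the authors. The submitters' processing notes name Salmon, DESeq2 and the build GRCh38 (hg38). Tool versions and the use of strand are not given in the sources used. Because Salmon splits reads among similar transcripts, near-identical copies can trade counts.

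Values were first rounded to whole counts. Symbols were matched by Ensembl ID (58919 of 65180 IDs). In edgeR 4.0.16 under R 4.3.3, the hypoxia experiment (14 libraries) and the TGF-β1 experiment (18) were each fitted with TMM scaling, filterByExpr and the robust quasi-likelihood test, 2-sided. Benjamini-Hochberg adjustment ran over the 21316 and 21639 genes kept, with calls made below 0.05. The fitting code was tested on simulated counts with the same dispersion for every gene and no library sets. That test covers the code, not how well the fit describes these data. The SE was derived as |log2 fold change| over √F and is approximate. CPM were scaled by TMM over all 24 libraries. Fitted fold changes of ANXA10 depend on the prior count and are not printed. Replicate pairs all differed beyond sampling noise (chi-square per degree of freedom 5.46 to 48.1).

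The members, gene lists and tests were chosen with earlier results of these data known. Named genes are the 10 members, all other annexin rows, at most 3 called genes per partner list and comparison with the largest absolute change, S100A10, S100A11, FPR1, FPR2, and the 5 genes most like ANXA10 and ANXA3. DDX60, SPOCK3 and FPR3, and PLAT with TGF-β1, were named outside this rule. Some genes that the rule would name are not reported here. Counting intervals are 95% exact intervals of the ratio of summed counts. Positions come from GENCODE 29 and promoters from RefSeq. Alternatives were RLE and upper quartile scaling, no filter, DESeq2 1.42.0, limma 3.58.1 voom, a replicate block, 1 fit of all libraries, each library left out and, chosen after seeing the data, the library sets.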

Additional observations from a re-analysis of the deposited data

Results flagged for a closer look

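ANXA9 in solvent replicate 5, at 6.89 CPM, lay apart from the other 4 controls, which ran from 5.39 to 5.6 CPM. The criterion for such a gap is met by chance in about 1 group in 20.

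The difference with BAY differed between backgrounds for 4 members by the interaction in the fit. For ANXA1 the interaction was 1.10 with oxygen and 1.36 with TGF-β1. For ANXA3 it was 0.93 with oxygen. For ANXA2 it was 0.50 and for ANXA4 -0.96 with TGF-β1. The members were selected on levels in these groups, so these values are a description.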

How the results depend on the processing

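Over the 70 log2 fold changes of members, 1390 alternative values were computed. Of these, 1294 kept their side of the threshold and direction, or moved by less than their SE where never called, 38 lost the call, 36 gained it, 21 moved without a call and 1 reversed. The reversed value is that of ANXA6 in hypoxia, which became 0.0299 ± 0.0385 (SE) against the solvent controls of library set 2 alone. That value lies within its SE of 0. Over all alternative values, with or without a call, the sign changed in 16 results, that of ANXA6 in hypoxia among them.

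The count of members called in the oxygen by BAY interaction became 4 with the controls of set 2 alone, against 2, and that in the TGF-β1 by BAY interaction became 5 with the controls of set 1 alone, against 3. Partner genes called with BAY on TGF-β1 became 28 with library set as a term, against 18, and those in the TGF-β1 by BAY interaction became 11 with the controls of set 2 alone, against 21. Over all genes, the oxygen by BAY interaction was called in 5821 with the controls of set 1 alone, against 3571. All other counts of members and partner genes stayed within 1.5 times.

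Over 39 pairs of same-numbered libraries, r between their deviations ran from -0.112 to 0.171. In the solvent and both TGF-β1 groups, however, replicates 1 and 2 were in library set 1 and replicates 3 and 4 in set 2. The range of r therefore does not settle whether the numbers pair libraries. With a replicate block, members called were 8 in hypoxia, 8, 10 and 8 with BAY in normoxia, hypoxia and on TGF-β1, 9 with TGF-β1, and 3 in each interaction. With at most 4 counts summed over a group without BAY, counting limits the folds of ANXA10.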
